A study of Mus musculus with 20 samples.

Results

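The suppressor of cytokine signalling (SOCS) family of the mouse was followed in macrophages that were at rest or classically activated. Its 8 members, Cish and Socs1 to Socs7, were picked by gene name from 56748 genes in each of 2 count tables, and all 8 were found once in each table. The first table held 12 libraries of poly(A)-enriched RNA that are labelled as primary bone marrow-derived macrophages (BMDM) of wildtype (WT) or iNOS KO C57BL/6J mice. These mice were 6 to 12 weeks old, and the cells were kept in 20 ng/mL M-CSF. They were left at rest or activated over 48 h by LPS at 50 ng/mL and IFNγ at 30 ng/mL, which made 4 groups of 3 libraries. According to the study's methods, the knockout BMDMs of the study came from B6.129P2-Nos2tm1Lau/J mice, a strain name other than that of the labels, and marrow was pooled by genotype, so the libraries may be cultures of pooled marrow. The second table held 8 libraries of RAW264.7 cells, a mouse macrophage line, that were WT or Akr1a1 KO by CRISPR-Cas9 and were left at rest or activated over 48 h by LPS at 50 ng/mL and IFNγ at 10 ng/mL. This experiment had 4 groups of 2 libraries, which the methods describe as independent clones. iNOS, encoded by Nos2, makes nitric oxide in activated macrophages, and AKR1A1 is an aldo-keto reductase. The study asked which parts of the response to LPS/IFNγ depend on nitric oxide and on AKR1A1.

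SOCS proteins are made in response to cytokines and shut off the signalling that induced them. Cytokine receptors activate Janus kinases (JAKs), which phosphorylate STAT factors that enter the nucleus and switch on target genes, and those genes include Cish, Socs1 and Socs3. Each SOCS protein has an SH2 domain that finds its phosphorylated target and a SOCS box that recruits elongins and a cullin to form a ubiquitin ligase. SOCS1 and SOCS3 can also inhibit the kinase directly. In macrophages SOCS1 restrains signalling by IFNγ and SOCS3 restrains signalling by IL-6 through gp130, whereas SOCS4 to SOCS7 are less well understood and have been tied to receptor tyrosine kinases and adaptor proteins.

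The promoters of the 3 members with the largest responses are shown first, with that of Socs4 as a member that stimulation of WT cells did not move past the test. RefSeq windows of 300 bases (GRCm38.p6, 250 bases before the transcript start and 50 after it) were at hand for 4 of the 8 members, and each is written 5′ to 3′ on the strand of its gene. Capitals mark 2 motifs that were searched on both strands. These are the gamma-activated site TTCNNNGAA that STAT dimers bind, which reads the same on both strands, and the element GAAANNGAAA of interferon regulatory factors, or TTTCNNTTTC on the other strand.
Cish (chr9:107296409-107296708, plus strand): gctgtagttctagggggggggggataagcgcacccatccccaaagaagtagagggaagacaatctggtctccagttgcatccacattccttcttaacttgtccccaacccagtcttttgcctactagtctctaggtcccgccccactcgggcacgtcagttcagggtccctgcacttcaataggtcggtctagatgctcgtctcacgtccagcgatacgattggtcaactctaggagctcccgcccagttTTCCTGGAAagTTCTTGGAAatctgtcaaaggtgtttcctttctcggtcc
Socs1 (chr16:10785487-10785786, minus strand): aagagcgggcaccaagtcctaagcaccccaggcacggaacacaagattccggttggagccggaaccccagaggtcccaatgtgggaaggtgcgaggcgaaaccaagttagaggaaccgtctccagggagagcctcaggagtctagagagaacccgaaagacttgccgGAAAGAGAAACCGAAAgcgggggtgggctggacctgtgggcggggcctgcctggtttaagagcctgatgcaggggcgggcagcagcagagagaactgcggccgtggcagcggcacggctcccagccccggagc
Socs3 (chr11:117969317-117969616, minus strand): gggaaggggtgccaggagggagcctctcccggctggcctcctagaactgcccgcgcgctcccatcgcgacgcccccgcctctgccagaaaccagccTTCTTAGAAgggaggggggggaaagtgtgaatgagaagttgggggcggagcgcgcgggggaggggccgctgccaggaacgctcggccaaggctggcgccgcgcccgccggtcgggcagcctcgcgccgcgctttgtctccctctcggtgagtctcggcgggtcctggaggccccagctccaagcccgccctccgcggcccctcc
Socs4 (chr14:47276670-47276969, plus strand): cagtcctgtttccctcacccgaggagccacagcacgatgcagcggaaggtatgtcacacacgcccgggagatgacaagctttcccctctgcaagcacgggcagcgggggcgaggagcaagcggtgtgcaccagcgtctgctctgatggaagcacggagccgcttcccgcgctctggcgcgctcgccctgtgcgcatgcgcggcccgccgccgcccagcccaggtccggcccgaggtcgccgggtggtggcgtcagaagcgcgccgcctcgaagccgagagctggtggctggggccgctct
The Cish window held 2 gamma-activated sites, TTCCTGGAA beginning at the start base and TTCTTGGAA beginning 11 bases after it. The Socs3 window held 1, TTCTTAGAA, beginning 154 bases before the start. The Socs1 window held 2 elements of interferon regulatory factors, GAAAGAGAAA and GAAACCGAAA, beginning 83 and 77 bases before the start and overlapping in the letters GAAA. The Socs4 window held neither motif. Of all 32851 promoter windows, 8.3% held a gamma-activated site, 0.457% held at least 2, and 3.44% held the other element. These matches describe letters and were not tested as binding sites.

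Several facts about the libraries bear on the family. Library totals ran from 15072109 to 18878107 counts in BMDM, and those of RAW264.7 cells ran from 11876719 to 44583327. The labels name the 12 libraries of the iNOS experiment BMDM, whereas the study's methods describe them as RAW264.7 cells. The Y-linked gene Ddx3y lay between 13.5 and 55.1 CPM, counts scaled to the library's size, in these 12 and was at 0 in all 8 RAW264.7 libraries. Replicate B of each unstimulated RAW264.7 group is titled as stimulated but is labelled unstimulated in its treatment field. Nos2 was at 30.7 and 38.1 CPM in these libraries and at 4155 CPM or more in the 4 stimulated ones. Counts on Nos2 over the whole gene were 149748, 170818 and 163172 in stimulated WT and 13544, 12352 and 15278 in stimulated iNOS KO BMDM, so the knockout kept counts on the gene at a lower level (log2 fold change -3.64 ± 0.06 (SE), adjusted p = 4.96e-15). Akr1a1 was at 427 and 488 CPM in unstimulated WT RAW264.7 cells and at 206 and 21.8 in the unstimulated knockout. In stimulated cells it was at 576 and 675 CPM in WT and 370.4 and 212 in the knockout, so it was lower in all 4 knockout libraries but least so in replicate A, and it passed the test in neither state (log2 fold change -2.01 ± 0.80 (SE), adjusted p = 0.56 at rest and log2 fold change -1.10 ± 0.77 (SE), adjusted p = 0.643 stimulated). Among BMDM libraries, stimulated iNOS KO replicate B correlated least with its group, at r = 0.986 and 0.9866, and the stimulated WT RAW264.7 pair correlated least of all, at 0.9698. All 10 macrophage markers reached 1 CPM in BMDM and 9 of 10 in RAW264.7 cells, where Mertk stayed below it. The 6 T and B cell markers stayed below 1 CPM in all 20 libraries. Of 7 neutrophil markers 2 reached 1 CPM in either cell type (S100a8 with Camp in BMDM and S100a8 with Mpo in RAW264.7 cells), while Ly6g and Ltf were at 0 in all 12 BMDM libraries. The sum of the 7 lay at 0.939 to 1.17 CPM in unstimulated and 35.5 to 62.1 CPM in stimulated WT BMDM, and at 0.218 to 0.623 and 121 to 145 CPM in WT RAW264.7 cells. The summed fibroblast, dendritic cell, and mast cell and basophil markers stayed at or below 16.6, 4.87 and 5.19 CPM in all 20 libraries, with Col3a1, Siglech and Mcpt4 at 0. The summed macrophage markers lay at 8382 to 8736 CPM in unstimulated WT BMDM and at 5912 to 6325 in unstimulated iNOS KO BMDM. After stimulation they lay at 8294 to 9306 CPM in WT and at 12748 to 13585 in iNOS KO BMDM. Single markers did not all go with that sum. In stimulated BMDM Adgre1 was at 1395 to 1506 CPM in WT and 919 to 966 in iNOS KO. Cd14 was at 1569 to 1778 CPM in WT and 2728 to 3157 in iNOS KO. In stimulated RAW264.7 cells the summed macrophage markers lay at 12232 to 12443 CPM in WT and 5294 to 9243 in Akr1a1 KO. The neutrophil markers there lay at 248 to 420 CPM in Akr1a1 KO. The part of these shifts in the results was not tested.

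Socs3 was the member with the highest level per gene length in BMDM, and stimulation made it most of the family's RNA. Levels of different genes are compared here as FPKM, which is CPM per kilobase of the gene length in the tables. That length is given per gene and may be longer than the transcript, as for Cish, which has 6419 bases. The order of members depends on it, and the spread between libraries does not cover this. By CPM alone Socs3 ranked 3 in unstimulated BMDM of either genotype and 1 after stimulation. In unstimulated WT BMDM it was at 35.2 CPM, behind Socs4 at 41.8 and Socs7 at 35.5, and Socs3 and Socs7 overlapped between libraries. In unstimulated WT BMDM the order was Socs3 at 12.2 ± 0.688 FPKM (SD, n = 3), Socs4 at 6.08 ± 0.574, Socs7 at 4.81 ± 0.0585, Socs5 at 3.55 ± 0.0882, Socs6 at 1.92 ± 0.0975, Socs1 at 0.405 ± 0.0227 and Cish at 0.0289 ± 0.0236, with Socs2 at 0. No neighbours in this order overlapped between libraries. After stimulation the order was Socs3 at 518 ± 42.1 FPKM, Socs1 at 38.6 ± 4.98, Socs4 at 6.67 ± 0.308, Socs7 at 4.87 ± 0.366, Cish at 2.53 ± 0.0976, Socs5 at 2.21 ± 0.173, Socs6 at 1.44 ± 0.167 and Socs2 at 0.00472. The summed FPKM of the 8 members went from 29.0 to 574, and the share of Socs3 in it went from 42.0% to 90.2%. In stimulated iNOS KO BMDM Socs3 and Socs1 again led, at 453 ± 74.9 and 46.2 ± 7.20 FPKM, and the neighbours Socs7 and Socs4, Socs4 and Socs5, and Cish and Socs6 overlapped between libraries.

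RAW264.7 cells had another order at rest. Socs4 led in unstimulated WT cells at 13.0 ± 0.378 FPKM (SD, n = 2), before Socs7 at 5.89 ± 0.438, Socs5 at 4.91 ± 0.520, Socs6 at 4.14 ± 0.673 and Socs3 at 3.04 ± 1.32, and both Socs5 with Socs6 and Socs6 with Socs3 overlapped between libraries. After stimulation Socs3 led at 293 ± 7.11 FPKM, a share of 89.6% of the family's summed FPKM, and Socs4 was next at 13.4 ± 2.05. Socs1 came in place 6 there at 3.26 ± 0.484 FPKM, whereas it held place 2 in stimulated WT BMDM at 38.6 ± 4.98. The tables were scaled separately and the doses of IFNγ differ, so these levels stand side by side with no test.

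**Figure D1:**
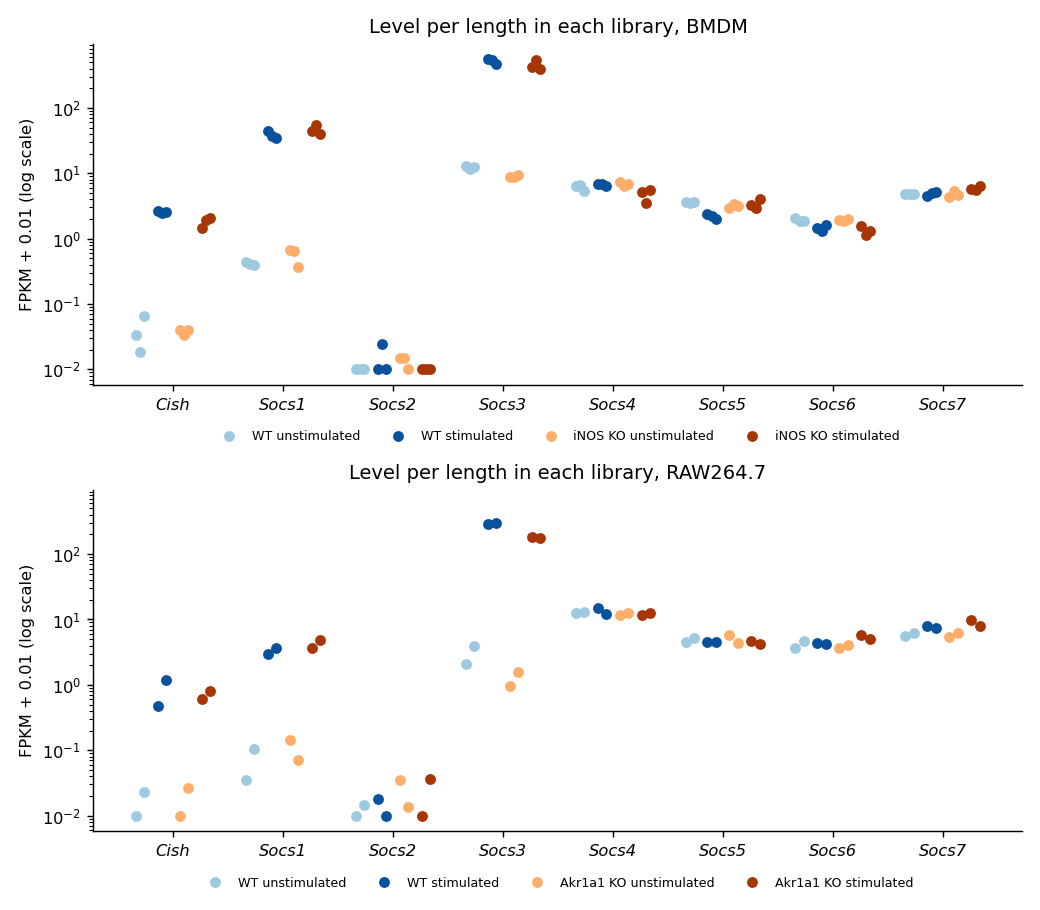
Level of each member in FPKM (with 0.01 added, log axis) in each library of BMDM (top, 3 per group) and RAW264.7 cells (bottom, 2 per group), where each point is a library. Cish, Socs1 and Socs3 sit far higher in the stimulated than in the unstimulated libraries of every group, and Socs4 to Socs7 stay between 1.14 and 14.9 FPKM throughout.

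Stimulation of WT BMDM raised Socs1, Cish and Socs3 and lowered Socs5 and Socs6. By the quasi-likelihood test of edgeR, with p adjusted by Benjamini and Hochberg's method over 18691 genes, 3 of the 7 members tested were higher (background: 32.4% of all genes were higher) and 2 were lower (background: 28.5% were lower). Both shares of the members lay close to those of all genes. Socs1, Cish and Socs3 differed from the other members in the size of the rise. The median log2 fold change of the 7 was 0.13, beside 0.07 over all genes. In bulk RNA, fewer cells with a transcript and less of it in each cell cannot be told apart. Nothing in the labels says that the libraries came from separate animals, so the p-values cover the spread between these libraries, which may be technical.

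Socs3, the feedback inhibitor of gp130 receptors, was at 36.9, 33.0 and 35.7 CPM in the unstimulated WT libraries and at 1589, 1542 and 1359 CPM in the stimulated ones. The stimulated libraries were all far above the unstimulated ones, a 42.5-fold rise (log2 fold change 5.41 ± 0.11 (SE), adjusted p = 2.29e-16). Socs1, which blocks JAKs downstream of the IFNγ receptor, was at 1.25, 1.17 and 1.12 CPM unstimulated and 129, 107 and 101 CPM stimulated. This was a 94.6-fold rise (log2 fold change 6.56 ± 0.19 (SE), adjusted p = 8.25e-15), again with no overlap, though from a far lower resting level than that of Socs3. Cish, which is induced by STAT5 and acts on receptors of the IL-2 and GM-CSF kind, was close to absent at rest, with counts of 3, 1 and 6, and had counts of 244, 232 and 232 after stimulation. In CPM it went from 0.150, 0.0556 and 0.352 to 16.9, 15.7 and 16.1 (log2 fold change 6.42 ± 0.26 (SE), adjusted p = 1.11e-12). Since its resting counts were so few, the ratio of its summed counts per scaled library size was taken too, and it was 89.3 (95% exact interval 48.3 to 187), an interval of counting error only. The same ratio for Socs1 was 95.1 (95% exact interval 74.5 to 123), so the rises of Cish and Socs1 in WT cells could not be ranked by size.

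Socs3, Socs1 and Cish rose without iNOS as well. In iNOS KO BMDM Socs3 went from 25.5, 25.7 and 26.8 to 1226, 1557 and 1149.7 CPM, 50.4-fold (log2 fold change 5.65 ± 0.12 (SE), adjusted p = 2.22e-16). Socs1 went from 1.93, 1.84 and 1.02 to 129, 157 and 117 CPM, 83.7-fold (log2 fold change 6.39 ± 0.18 (SE), adjusted p = 9.34e-15). Cish went from 0.193, 0.149 and 0.195 to 9.26, 12.1 and 13.0 CPM (log2 fold change 5.94 ± 0.27 (SE), adjusted p = 6.91e-12), and the ratio of its summed counts was 64.0 (95% exact interval 35.5 to 129). None of these 3 responses differed between genotypes past the test of the difference itself, given below. Together with Socs7, which is described below, 4 of 7 members tested were higher (background: 27.3%) and 2, Socs4 and Socs6, were lower (background: 24.6%). The median log2 fold change of the 7 was 0.30, beside -3.22e-04 over all genes. Both stimulation comparisons of BMDM gave these counts under DESeq2 as well.

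**Figure D2:**
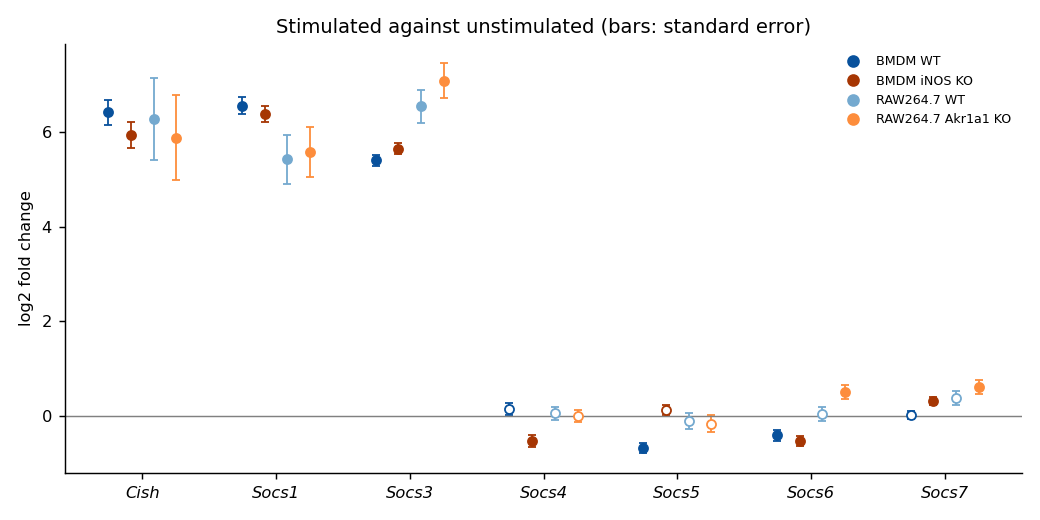
Log2 fold change of 7 members, stimulated against unstimulated, in each genotype of BMDM (n = 3 per group) and RAW264.7 cells (n = 2 per group), where bars are standard errors and open points did not pass an adjusted p of 0.05. Cish, Socs1 and Socs3 lie between 5.41 and 7.09 in all 4 comparisons, and Socs4 to Socs7 lie between -0.69 and 0.60.

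Socs2, which limits growth hormone signalling through STAT5, was at the edge of detection in every group. Its counts in BMDM were 0, 0 and 0 in unstimulated WT, 0, 2 and 0 in stimulated WT, 1, 1 and 0 in unstimulated iNOS KO and 0, 0 and 0 in stimulated iNOS KO libraries. With 4 counts over 12 libraries it fell under the minimum of 10 and was not tested there. In RAW264.7 cells the counts were 0 and 2 in unstimulated WT, 1 and 0 in stimulated WT, 3 and 1 in the knockout at rest and 0 and 4 in the stimulated knockout. It was tested in these cells and did not pass in any comparison, and a change of so few counts was not detectable at this depth.

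The other 4 members were detected at rest and moved by small amounts. Socs5, which has been tied to EGF receptor and IL-4 signalling, was at 23.1, 22.1 and 23.1 CPM in unstimulated and 15.2, 14.3 and 13.0 CPM in stimulated WT BMDM. All 3 stimulated libraries were below all 3 unstimulated ones (log2 fold change -0.69 ± 0.11 (SE), adjusted p = 4.19e-05). In iNOS KO cells it was at 18.7, 21.4 and 20.1 CPM before and 20.8, 19.0 and 25.6 CPM after stimulation, with overlap between the groups (log2 fold change 0.13 ± 0.11 (SE), adjusted p = 0.352). Socs6, an adaptor that binds the receptor KIT, was lower after stimulation in either genotype. It went from 23.1, 21.0 and 21.4 to 16.3, 14.5 and 18.3 CPM in WT (log2 fold change -0.42 ± 0.11 (SE), adjusted p = 0.00427) and from 22.1, 21.0 and 22.5 to 17.6, 13.0 and 14.5 CPM in iNOS KO cells (log2 fold change -0.54 ± 0.11 (SE), adjusted p = 6.77e-04), with no overlap in either.

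Socs4, like Socs5 a member with a long stretch before its SH2 domain, was at 43.4, 44.7 and 37.3 CPM in unstimulated and 47.4, 46.9 and 43.5 CPM in stimulated WT cells, and the groups overlapped (log2 fold change 0.13 ± 0.13 (SE), adjusted p = 0.388). In iNOS KO cells it was at 51.3, 43.7 and 47.7 CPM before and 35.6, 24.3 and 38.6 CPM after stimulation, all lower (log2 fold change -0.53 ± 0.13 (SE), adjusted p = 0.00229). The lowest of these values came from replicate B, the BMDM library that correlated least with its group. Socs7, an adaptor that has been tied to insulin signalling, was at 35.0, 35.7 and 35.9 CPM in unstimulated and 32.8, 37.3 and 37.7 CPM in stimulated WT cells (log2 fold change 0.02 ± 0.09 (SE), adjusted p = 0.884). In iNOS KO cells it was at 32.3, 38.8 and 34.7 CPM before and 42.5, 40.9 and 47.3 CPM after stimulation, and all stimulated libraries were higher (log2 fold change 0.30 ± 0.09 (SE), adjusted p = 0.00771).

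**Figure D3:**
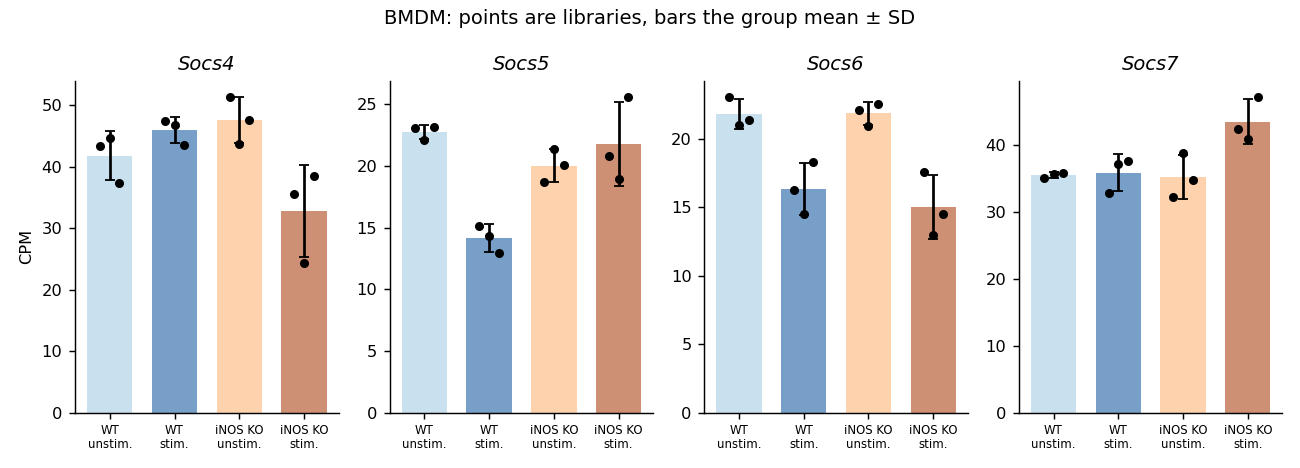
Level of Socs4, Socs5, Socs6 and Socs7 in CPM in the 12 BMDM libraries, where points are libraries and bars are the group mean with its SD (n = 3). Socs5 is low in stimulated WT libraries alone (14.1 ± 1.11 CPM), and Socs4 has its lowest mean in stimulated iNOS KO libraries (32.8 ± 7.52 CPM).

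Before stimulation, 1 member of 7 differed between iNOS KO and WT BMDM past the test (background: 5.98% of all genes in either direction). This was Socs3, at 36.9, 33.0 and 35.7 CPM in WT and 25.5, 25.7 and 26.8 CPM in iNOS KO libraries, with no overlap (log2 fold change -0.44 ± 0.10 (SE), adjusted p = 0.0153). The call did not hold when any of 4 of the 6 libraries was left out: without unstimulated WT replicate A or C or unstimulated iNOS KO replicate A or B the adjusted p ran from 0.0599 to 0.0816, at log2 fold changes of -0.40 to -0.43. Socs1 changed by 0.44 ± 0.28 on the log2 scale (adjusted p = 0.478) with overlap between the groups, and the other 5 lay between -0.19 and 0.19. Nos2 itself was at counts of 25, 26 and 26 in these WT libraries and at 0 in all 3 of iNOS KO. The study's methods name both male and female mice as the source of BMDMs. In BMDM of either state, genotype and any difference in mouse strain, sex or marrow pool go together and cannot be told apart.

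After stimulation, 2 members were higher in iNOS KO than in WT BMDM (background: 24.2% higher) and 2 were lower (background: 24.2% lower), shares close to those of all genes. The median log2 fold change of the 7 tested was -0.12, beside -0.04 over all genes. Socs5 was higher, at 20.8, 19.0 and 25.6 CPM in iNOS KO against 15.2, 14.3 and 13.0 CPM in WT libraries, with no overlap (log2 fold change 0.63 ± 0.11 (SE), adjusted p = 1.78e-04). Socs7 was higher by less, at 42.5, 40.9 and 47.3 against 32.8, 37.3 and 37.7 CPM (log2 fold change 0.28 ± 0.09 (SE), adjusted p = 0.0158), and did not pass without stimulated WT replicate A (adjusted p = 0.0776) or stimulated iNOS KO replicate C (adjusted p = 0.0722). Cish was lower, at 9.26, 12.1 and 13.0 against 16.9, 15.7 and 16.1 CPM, and did not overlap (log2 fold change -0.50 ± 0.15 (SE), adjusted p = 0.00896). Socs4 was lower, at 35.6, 24.3 and 38.6 against 47.4, 46.9 and 43.5 CPM, and did not overlap (log2 fold change -0.48 ± 0.13 (SE), adjusted p = 0.00575). Without stimulated iNOS KO replicate B its log2 fold change was -0.31 (adjusted p = 0.00341), and in a fit of these 6 libraries alone it was -0.41 (adjusted p = 0.0574).

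The 2 most abundant members after stimulation did not pass the test between genotypes. Socs3 was at 1589, 1542 and 1359 CPM in WT and 1226, 1557 and 1149.7 CPM in iNOS KO libraries, where replicate B was the high one (log2 fold change -0.19 ± 0.09 (SE), adjusted p = 0.101). Without that library the log2 fold change was -0.33 (adjusted p = 2.98e-05), and without stimulated WT replicate C it was -0.26 (adjusted p = 0.0491). Socs1 was at 129, 107 and 101 CPM in WT and 129, 157 and 117 CPM in iNOS KO libraries, with overlap (log2 fold change 0.26 ± 0.12 (SE), adjusted p = 0.0881). It passed without stimulated WT replicate A (0.37, adjusted p = 0.0306) and without stimulated iNOS KO replicate C (0.35, adjusted p = 0.0253), whereas without stimulated iNOS KO replicate B its log2 fold change was 0.13 (adjusted p = 0.218). With all libraries kept and no filter beyond 1 count, Socs1 passed (0.26, adjusted p = 0.0128), and so did Socs3 (-0.19, adjusted p = 0.0177). Socs6 stood at -0.12 ± 0.12 (adjusted p = 0.427).

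The stimulation responses themselves differed between genotypes for Socs5 and Socs4. The difference, iNOS KO minus WT, was 0.81 ± 0.15 (SE) for Socs5 (adjusted p = 4.96e-04), whose response was -0.69 ± 0.11 in WT and 0.13 ± 0.11 in iNOS KO cells. For Socs4 it was -0.67 ± 0.18 (SE, adjusted p = 0.00839), with responses of 0.13 ± 0.13 in WT and -0.53 ± 0.13 in iNOS KO cells. So 1 member of 7 was higher (background: 20%) and 1 was lower (background: 15.4%). Without stimulated iNOS KO replicate B the differences were 0.90 (adjusted p = 4.48e-06) for Socs5 and -0.49 (adjusted p = 6.77e-04) for Socs4. The difference was 0.29 ± 0.12 for Socs7 (adjusted p = 0.0868), which passed without unstimulated iNOS KO replicate B (adjusted p = 0.038) and without stimulated iNOS KO replicate B (adjusted p = 0.0181). It was 0.25 ± 0.14 for Socs3 (adjusted p = 0.192), -0.18 ± 0.30 for Socs1 (adjusted p = 0.715), -0.48 ± 0.63 for Cish (adjusted p = 0.614) and -0.12 ± 0.16 for Socs6 (adjusted p = 0.612). These comparisons share libraries with each other and with the stimulation comparisons.

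In RAW264.7 cells, with 19569 genes tested, stimulation raised Socs3, Socs1 and Cish. Socs3 was at 6.10 and 11.5 CPM in unstimulated and 833 and 862 CPM in stimulated WT libraries, a 93.8-fold rise (log2 fold change 6.55 ± 0.35 (SE), adjusted p = 5.81e-06). In Akr1a1 KO libraries it was at 2.75 and 4.59 CPM before and 529.6 and 509 CPM after stimulation, a 137-fold rise (log2 fold change 7.09 ± 0.36 (SE), adjusted p = 5.36e-06). Stimulated and unstimulated libraries did not overlap in either genotype. Socs1 had counts of 1 and 13 in unstimulated and 114 and 186 in stimulated WT libraries, which are 0.0726 and 0.279 CPM before and 8.48 and 10.5 CPM after stimulation (log2 fold change 5.43 ± 0.52 (SE), adjusted p = 9.93e-05). In Akr1a1 KO libraries it was at 0.393 and 0.174 CPM before and 10.6 and 14.3 CPM after stimulation (log2 fold change 5.58 ± 0.53 (SE), adjusted p = 8.97e-05). So Socs1 was close to absent at rest and low after stimulation in these cells. The ratio of its summed counts was 41.4 (95% exact interval 24.3 to 76.6) in WT and 51.8 (95% exact interval 27.8 to 109) in Akr1a1 KO cells. Cish had counts of 0 and 4 in unstimulated and 40 and 136 in stimulated WT libraries (log2 fold change 6.28 ± 0.87 (SE), adjusted p = 7.19e-04), and the WT replicates differed, at 2.97 and 7.65 CPM. In Akr1a1 KO libraries its counts were 0 and 3 before and 57 and 81 after stimulation (log2 fold change 5.89 ± 0.89 (SE), adjusted p = 0.00109). Its ratio of summed counts was 85.0 (95% exact interval 32.6 to 315) in WT and 61.8 (95% exact interval 20.7 to 304) in Akr1a1 KO cells, and its fitted values depend on the prior count. Without the unstimulated replicate B whose title disagrees with its treatment label, all 6 of these rises passed as well, at log2 fold changes of 4.96 to 9.49.

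These 3 were the members called in WT RAW264.7 cells, so 3 of 8 were higher (background: 18.5%) and 0 were lower (background: 19.2%). Socs7 was at 41.2 and 45.8 CPM in unstimulated and 57.9 and 54.7 CPM in stimulated WT libraries, without overlap, and missed the threshold (log2 fold change 0.37 ± 0.14 (SE), adjusted p = 0.076). It passed with DESeq2, with its size factors in edgeR, with edgeR's own filter and with protein-coding genes alone. In Akr1a1 KO cells 5 of 8 were higher (background: 19.8%) and 0 were lower (background: 19.4%). In either genotype edgeR gave 0 lower members at an unadjusted p under 0.05 too, and so did DESeq2. The median log2 fold change of the 8 was 0.23 in WT and 0.55 in Akr1a1 KO cells, beside -0.03 and 0.02 over all genes. Here Socs7 was at 39.8 and 45.4 CPM before and 71.2 and 58.3 CPM after stimulation (log2 fold change 0.60 ± 0.14 (SE), adjusted p = 0.011). Socs6 was at 41.0 and 45.3 CPM before and 65.3 and 56.8 CPM after it (log2 fold change 0.50 ± 0.15 (SE), adjusted p = 0.029). Both calls were lost without unstimulated Akr1a1 KO replicate A (adjusted p = 0.0831 for Socs7 and adjusted p = 0.153 for Socs6) and without stimulated Akr1a1 KO replicate A (adjusted p = 0.0566 and adjusted p = 0.118), the libraries that kept more Akr1a1, and that of Socs6 also without unstimulated Akr1a1 KO replicate B (adjusted p = 0.0755). Socs4 and Socs5 did not pass in either genotype. Socs4 was at 87.3 and 91.0 CPM in unstimulated and 102 and 82.5 CPM in stimulated WT libraries, and Socs5 at 29.1 and 33.8 CPM before and 28.6 and 29.5 CPM after it. With 2 libraries a group, the loss of 1 leaves a lone library that is taken to vary like the others.

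Between Akr1a1 KO and WT RAW264.7 cells, 0 of 8 members passed the test at rest (background: 0.583% of all genes in either direction). It was also 0 in stimulated cells (background: 0.286%) and 0 in the difference of the responses (background: 0.0204%). By the same edgeR test Akr1a1 itself did not pass at rest (adjusted p = 0.56) or stimulated (adjusted p = 0.643). These counts of 0 therefore do not show that the members were unchanged. At an unadjusted p under 0.05 edgeR gave 1, 1 and 0 members, and DESeq2 gave 1, 0 and 0 at an adjusted p under 0.05. Socs3 was the member in each of these cases. It was at 6.10 and 11.5 CPM in unstimulated WT and 2.75 and 4.59 CPM in unstimulated Akr1a1 KO libraries, all lower (log2 fold change -1.25 ± 0.31 (SE), adjusted p = 0.208 by edgeR, -1.22 and adjusted p = 0.00261 by DESeq2). In stimulated cells it was at 833 and 862 CPM in WT and 529.6 and 509 CPM in Akr1a1 KO libraries, again without overlap (log2 fold change -0.71 ± 0.27 (SE), adjusted p = 0.396). Replicate A of the knockout, which kept more Akr1a1, had the lower Socs3 of the pair at rest and the higher one after stimulation. All 3 counts stayed at 0 when any 1 library was left out. In the stimulated comparison the log2 fold change was 0.33 ± 0.15 for Socs6 (adjusted p = 0.464), 0.39 ± 0.39 for Socs1 (adjusted p = 0.757), 0.20 ± 0.14 for Socs7 (adjusted p = 0.648) and -0.26 ± 0.60 for Cish (adjusted p = 0.921).

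**Figure D4:**
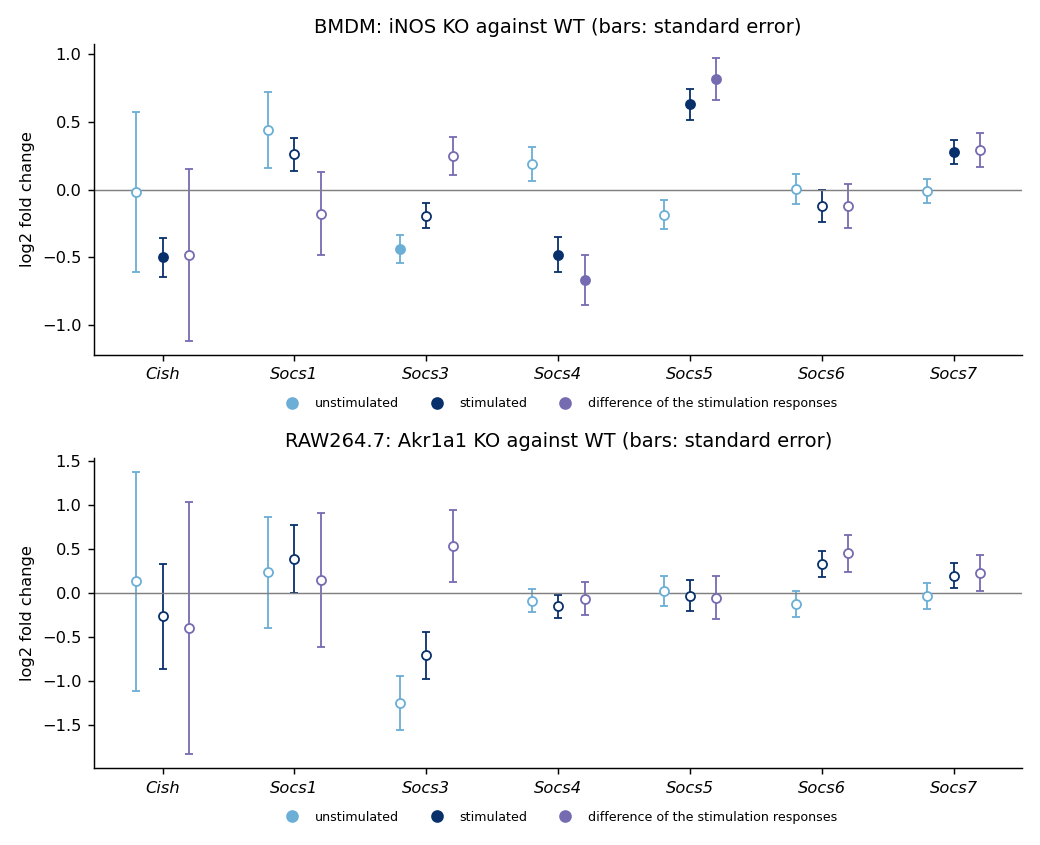
Log2 fold change of 7 members, iNOS KO against WT in BMDM (top) and Akr1a1 KO against WT in RAW264.7 cells (bottom), for unstimulated cells, stimulated cells and the difference of the stimulation responses, where bars are standard errors and filled points passed an adjusted p of 0.05. Filled points stand at Socs3 in unstimulated BMDM (-0.44 ± 0.10), at Cish, Socs4, Socs5 and Socs7 in stimulated BMDM and at Socs4 and Socs5 for the difference, and the lower panel has none.

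The kinases and STAT factors of the pathway that SOCS proteins restrain rose in BMDM. In stimulated WT BMDM all 4 Janus kinases were higher (background: 32.4% of all genes, with a median log2 fold change of 1.84 for the kinases beside 0.07 over all genes), with Jak1 at 2.17 ± 0.07, Jak2 at 2.96 ± 0.18, Jak3 at 1.52 ± 0.09 and Tyk2 at 0.78 ± 0.08. Higher too were 5 STAT factors, with Stat2 at 4.36 ± 0.10, Stat3 at 2.96 ± 0.06, Stat5a at 1.26 ± 0.11, Stat5b at 0.29 ± 0.08 and Stat6 at 0.78 ± 0.07, while Stat4 was under the minimum of counts. In iNOS KO BMDM these 4 kinases and 5 STAT factors were higher as well (background: 27.3%). In stimulated cells Jak1, which works at the receptors of interferons and of IL-6, was lower in iNOS KO than in WT (-1.07 ± 0.07, adjusted p = 8.46e-10). So were Stat2 (-0.53 ± 0.09, adjusted p = 5.73e-05), Stat6 (-0.36 ± 0.07, adjusted p = 3.25e-04) and Stat3 (-0.19 ± 0.06, adjusted p = 0.0101), where 24.2% of all genes were lower. Jak2, Jak3, Tyk2, Stat5a and Stat5b did not pass in that comparison. The difference of the responses passed for Jak1 (-0.94 ± 0.10) and Stat6 (-0.38 ± 0.10) among these 9 genes (background: 15.4% lower).

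In stimulated WT RAW264.7 cells, where 18.5% of all genes were higher, 2 of 4 kinases were higher, Jak1 at 0.83 ± 0.13 and Jak2 at 1.44 ± 0.21, and Stat2, Stat3 and Stat6 were higher at 2.96, 1.90 and 0.77. Stat5a, which drives Cish, was lower in WT RAW264.7 cells (-0.76 ± 0.23, adjusted p = 0.0284), whereas it was higher in WT BMDM. In Akr1a1 KO cells the same 2 kinases and the same 3 STAT factors were higher (background: 19.8%) and Stat5a was at -0.18 ± 0.22 (adjusted p = 0.575). Akr1a1 KO and WT differed past edgeR's test for 0 of these 9 genes in unstimulated cells (background: 0.583% of all genes in either direction). The number was also 0 in stimulated cells (background: 0.286%) and 0 in the difference of the responses (background: 0.0204%). At an unadjusted p under 0.05 there were 0 in unstimulated cells, 2 in stimulated cells and 0 for the difference.

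**Figure D5:**
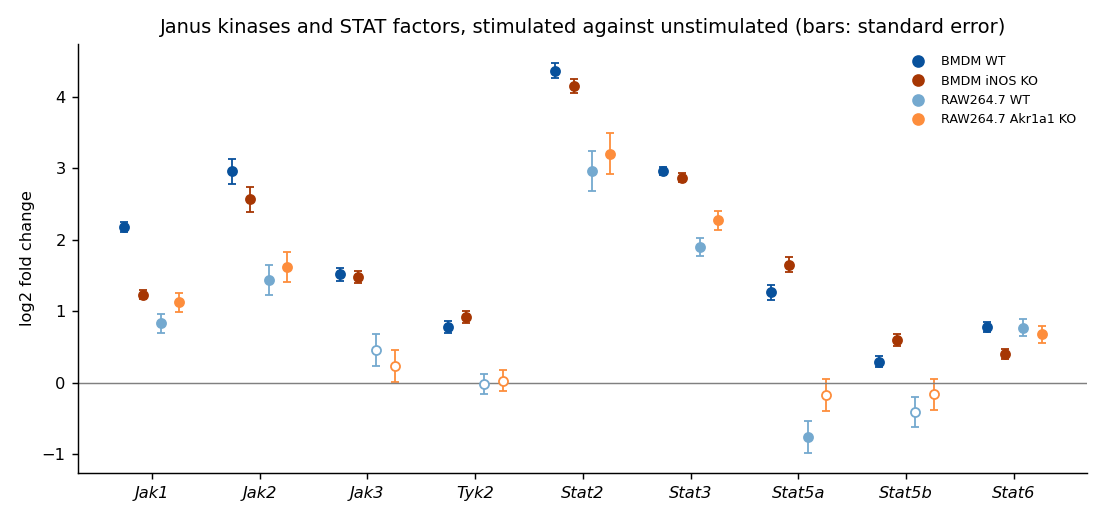
Log2 fold change of 4 Janus kinases and 5 STAT factors, stimulated against unstimulated, in each genotype of BMDM (n = 3 per group) and RAW264.7 cells (n = 2 per group), where bars are standard errors and open points did not pass an adjusted p of 0.05. Stat2 has the largest value shown in WT BMDM, at 4.36, and Stat5a is above 0 in BMDM and below 0 in RAW264.7 cells.

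Ligands that signal through JAKs rose in large part. In WT BMDM 13 were higher and 1 lower of 15 tested (background: 32.4% and 28.5%, with a median log2 fold change of 4.39), led by Csf3 (10.07), Il6 (8.47), which acts through gp130, and Csf2 (7.50), which encodes GM-CSF, with Il4 as the lower one (-2.33). In WT RAW264.7 cells 12 were higher and 1 lower of 15 tested (background: 18.5% and 19.2%). Values for several ligands and for Il2rb, Osmr and Il12rb2 among the receptors rest on few or no counts in 1 or both states and are not bounds. In stimulated cells 6 of 15 ligands were higher and 6 lower in iNOS KO than in WT BMDM (background: 24.2% and 24.2%), among them Lif (3.05), Il10 (2.69) and Csf2 (-2.62). Of the receptors, those of the common beta and gamma chain kind had 10 of 11 higher in WT BMDM (median 2.99), with Il2rb at 5.41, Il15ra at 4.60 and Il4ra at 4.29. Receptors of the gp130 family had 3 higher and 3 lower of 9, with Osmr at 2.71, Il6ra at -2.32 and Il12rb2 at -2.29, and interferon and IL-10 receptors had 4 higher and 2 lower of 6. The shares of the gp130 family were close to those of all genes in that comparison (32.4% higher and 28.5% lower). Il6st, which encodes gp130, was higher after stimulation in WT (0.48) and lower in iNOS KO BMDM (-0.80), and its difference of responses was -1.29 ± 0.10 (adjusted p = 4.68e-08).

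Other brakes on the pathway moved in both directions, as all genes did. Of 13 other inhibitors 6 were higher and 5 lower in WT BMDM (background: 32.4% and 28.5%, with a median of 0.10), led by Usp18 (5.31), which dampens the type I interferon receptor, Cblb (1.70) and Ptpn6 (-1.15), the phosphatase SHP-1. Ptpn6 was lower in WT and higher in iNOS KO BMDM (0.28) after stimulation, and the difference of its responses was 1.43 ± 0.10 (adjusted p = 5.95e-09). In WT RAW264.7 cells 4 of 13 were higher (background: 18.5%) and the others did not pass, with Usp18 at 4.13. Of 6 genes listed as partners of the SOCS box (Elob, Eloc, Cul5, Rnf7, Cul2 and Rbx1), 1 was higher and 1 lower in WT BMDM. These shares were below those of all genes, with Elob at 0.39 and Eloc at -0.73, and the median was -0.04. The list holds both Cul5 and Cul2, so it is not the make-up of a single ligase. In iNOS KO BMDM Elob (0.80) and Rbx1 (0.27) were higher and Cul5, the cullin of SOCS ligases, was lower (-0.68). After stimulation Eloc was higher in iNOS KO than in WT BMDM (0.96 ± 0.16, adjusted p = 1.15e-04). In WT RAW264.7 cells 1 of the 6 was higher (background: 18.5%), Rnf7 at 0.41. The SPSB proteins are SOCS box proteins, and some of them, but not all, are known to mark iNOS for degradation. Of 3 SPSB genes tested in WT BMDM, 1 was higher and 1 lower, about the shares of all genes. Spsb3 was higher after stimulation (0.83) and Spsb2 lower (-0.31). In stimulated cells Spsb1 was higher (0.54, adjusted p = 0.00667) and Spsb3 lower (-0.54, adjusted p = 0.0166) in iNOS KO than in WT BMDM.

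The genes whose log2 CPM went most like each member's were taken as a description, from protein-coding genes with a mean log2 CPM over 3, by Pearson's r over the 12 BMDM libraries, with r over the 8 RAW264.7 libraries beside it. The points share their groups, so r is high for any gene with the same response. For Socs3 they were Crybg2 (r = 0.999 in BMDM, 0.95 in RAW264.7 cells) and Slfn2 (r = 0.999 in BMDM, 0.97 in RAW264.7 cells), and for Socs1 they were Phlda1 (r = 0.998 in BMDM, 0.98 in RAW264.7 cells) and Lrp11 (r = 0.997 in BMDM, 0.79 in RAW264.7 cells). For Cish they were Gbp2 (r = 0.996 in BMDM, 0.98 in RAW264.7 cells) and Rmdn3 (r = 0.996 in BMDM, 0.92 in RAW264.7 cells). Gbp2 is a guanylate-binding protein induced by IFNγ. The members with small responses had weaker likeness: Usp34 (r = 0.980 in BMDM, 0.01 in RAW264.7 cells) and Akap9 (r = 0.980 in BMDM, 0.64 in RAW264.7 cells) for Socs4, Ikzf1 (r = 0.944 in BMDM, 0.44 in RAW264.7 cells) and Slc8a1 (r = 0.939 in BMDM, not tested in RAW264.7 cells) for Socs5, Slc16a7 (r = 0.959 in BMDM, -0.66 in RAW264.7 cells) and Akap10 (r = 0.948 in BMDM, 0.83 in RAW264.7 cells) for Socs6 and Sema4b (r = 0.900 in BMDM, 0.88 in RAW264.7 cells) and Ywhah (r = 0.900 in BMDM, 0.77 in RAW264.7 cells) for Socs7.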

How the data were processed

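Counts per gene were taken from 2 deposited tables, which hold the authors' raw counts without normalization. Per the labels and the study's methods, the authors called bases with CASAVA, filtered reads, aligned them with STAR to mm10 and took read counts per gene. Gene positions in the tables did not match GRCm38 and are not printed. Groups came from the labels. The tests took genes whose counts summed to 10 or more over an experiment (18691 in BMDM, 19569 in RAW264.7 cells). TMM scaling and the tests used edgeR 4.0.16 (R 4.3.3), with 1 mean per group and experiment, and the quasi-likelihood F test (2-sided) with Benjamini-Hochberg adjustment over all genes tested. A gene was called at an adjusted p under 0.05. SE is the log2 fold change over the root of F. CPM use the TMM sizes, and FPKM the gene length of the tables; likeness used log2 CPM with a prior count of 2. Intervals of ratios are exact binomial ones at 95% and cover counting error only.

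The 8 members and the lists of related genes were chosen with earlier results of these data known. The text names all members, Nos2, Akr1a1, the kinases, 5 STAT factors, and up to 3 genes of each other list in a comparison, those with the largest change among the genes called; Il4, and Il6st and Ptpn6 within each genotype, were named after their values were seen. Results for 1 further gene and 1 list are not reported here. Alternatives were DESeq2 1.42.0, its size factors in edgeR, other filters, protein-coding genes alone, a fold change limit, a replicate block, a fit of the groups compared alone and each library left out. On simulated data for stimulated iNOS KO against WT, 93 of 100 genes changed 2-fold and 100 of 100 changed 4-fold were called, with 8 unchanged genes called too, and for stimulated Akr1a1 KO against WT 42 and 85 of 100, with 2 unchanged genes called. Figures used matplotlib 3.10.9.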

Additional observations from a re-analysis of the deposited data

Results flagged for a closer look

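The response to stimulation differed between genotypes for 2 members in BMDM, by a test of the difference itself (edgeR). For Socs4 the difference, iNOS KO minus WT, was -0.665 on the log2 scale (adjusted p = 0.00839), and all 3 iNOS KO libraries were lower after stimulation while the WT groups overlapped. For Socs5 the difference was 0.812 (adjusted p = 4.96e-04), and all 3 WT libraries were lower after stimulation while the iNOS KO groups overlapped. Groups of 2 or 3 libraries were too small for a test of single outlying libraries.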

How the results depend on the processing

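With DESeq2, its size factors in edgeR, other filters and protein-coding genes alone, the number of members called in BMDM stayed within 1.5 times that reported in all 5 comparisons, and with only the groups compared it did in the 4 that could be fitted so. With a log2 fold change over 1 as well, it was 3 in both stimulation comparisons of BMDM, 0 in each iNOS KO comparison and in the difference of responses, and 3 for the stimulation of Akr1a1 KO cells. Leaving out 1 library gave 0 to 1 members for unstimulated iNOS KO against WT (0 without WT replicate A or C or iNOS KO replicate A or B) and 3 to 5 for the stimulation of Akr1a1 KO cells (3 without replicate A of either state). For Akr1a1 KO against WT, 1 member, Socs3, was called in unstimulated cells with DESeq2 and with no filter beyond 1 count, and 1, Socs3, in stimulated cells with no filter. Over all genes, edgeR called 114 in unstimulated cells, 56 in stimulated cells and 4 for the difference, against 406, 480 and 90 with DESeq2, 846, 1015 and 285 with no filter, and 22 to 56, 6 to 108 and 0 to 14 without 1 library. For the difference other scalings, filters and the block gave 1 or 2. With only the groups compared, 12 genes in place of 56 were called in stimulated Akr1a1 KO against WT, and 2715 in place of 1117 in unstimulated iNOS KO against WT, where leaving out 1 library gave 684 to 845. The cause was not tested. Of the values of single members across these settings, 320 of called members passed again and 12 did not. Of those not called, 16 passed, and 59 changed sign without a call on either side. The labels do not say what the replicate letters share. Same-letter deviations correlated at -0.0969 to 0.102 in BMDM and -0.0959 to 0.254 in RAW264.7 cells. They were not over 0.1 in every pair, so the letters were not taken to pair the libraries, although some RAW264.7 pairs deviated together. These pairs, like the block below, joined WT with knockout libraries. They cannot tell whether a letter marks the same clone in both states of a genotype. Akr1a1 in the Akr1a1 KO was at 206 (unstimulated) and 370.4 CPM (stimulated) in replicate A and at 21.8 and 212 in replicate B. Pairing by clone within a genotype was not tested. With the letter as a replicate block, 5 members were called in place of 4 for stimulated iNOS KO against WT, where Socs1 was added (0.26, adjusted p = 0.0447), and the number called in the other 9 comparisons was as reported. With 2 libraries a group, depth and number limit RAW264.7 values most for Cish, Socs1 and Socs2, at few counts. Ranks of members by level within a group moved in 21 cases and stayed in 43 with CPM in place of FPKM.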
